A study of Mus musculus with 13 samples.

Results

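In the neurovascular RNA examined here, 259 protein-coding genes were lowest in the mice given CPD-4645 after lipopolysaccharide (LPS). CPD-4645 blocks monoacylglycerol lipase (MAGL). A gene belonged to this set when its lowest CPM, the count as a share of all gene counts of the library scaled to 1000000, over the 9 vehicle mice, sham-vehicle and LPS-vehicle together, was at least 1 and at least 1.3 times its highest CPM over the 4 LPS-CPD-4645 mice. The count table listed 47643 genes, of which 21620 were protein-coding, and 12806 of these reached a CPM of 1 in every vehicle mouse. The members were thus 2.02% of the coding genes that could have been chosen. The members were chosen by these CPM values, so their lower level under CPD-4645 is described below without a test. A gap of any size below all 9 vehicle mice was present for 1337 of the 12806 genes (10.4%). The mirror set, coding genes highest under CPD-4645 by the same ratio, held 112 genes with its floor of 1 CPM set in the LPS-CPD-4645 mice, of which 73 also reached a CPM of 1 in every vehicle mouse.

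The 13 samples came from male CD1 mice aged 8 to 10 weeks. Sham-vehicle mice (n = 4) received no LPS. LPS-vehicle mice (n = 5) were given LPS of Salmonella enterica typhimurium at 3 mg/kg into the peritoneum at 0, 6 and 24 h, and LPS-CPD-4645 mice (n = 4) received the same LPS and CPD-4645 at 10 mg/kg under the skin, per the labels 30 min after each dose, a delay on which the sources used here differ. Tissue was taken at 28 h from brains that were not perfused, and polyadenylated RNA of the isolated vessel fraction was sequenced, so blood left in the vessels and brain tissue attached to them were part of each sample. No group received CPD-4645 without LPS, and what the compound does alone cannot be told apart from what it does after LPS. The 15 endothelial markers summed to 1262 to 1990 CPM per mouse and the 12 neuronal markers to 9790 to 11709 CPM, with every marker of both lists detected in at least 1 mouse. In such bulk samples, fewer cells of a type and less RNA per cell cannot be told apart.

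MAGL hydrolyses the endocannabinoid 2-arachidonoylglycerol to arachidonic acid, a precursor of prostaglandins, and its inhibition raises the former and lowers the latter in brain. LPS activates Toll-like receptors on vessel and immune cells and induces cytokines and adhesion molecules in the brain vasculature. None of the 32 innate sensing genes, 15 leukocyte adhesion genes, 21 endothelial receptors or 20 genes of 2-arachidonoylglycerol and arachidonic acid metabolism that reached a CPM of 1 in every vehicle mouse was a member, where the share over all eligible coding genes was 2.02%. A gene raised by LPS and lowered by CPD-4645 only toward the sham level could not be a member. Over the whole leukocyte adhesion list the median fitted log2 difference was 1.12 for LPS-vehicle against sham-vehicle mice. For LPS-CPD-4645 mice it was -0.68 against LPS-vehicle and -0.02 against sham-vehicle mice. For innate sensing the 3 medians were 0.9, -0.31 and 0.72. Absence from the set thus does not mean that a gene was unchanged. The members with an assigned role worked in mitochondria, centrioles and cilia, DNA repair, transcription, RNA modification, protein glycosylation and nerve cell signalling, among others.

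Together the members took 0.755% to 0.788% of all counts in the sham-vehicle mice, 0.668% to 0.785% in the LPS-vehicle mice and 0.350% to 0.404% in the LPS-CPD-4645 mice. LPS-CPD-4645 mouse 1 stood highest of its group and LPS-vehicle mouse 2 lowest of the vehicle mice, and the groups did not overlap, as the choice of members requires. Per gene, the LPS-CPD-4645 mean was 45.7% of the mean over the 9 vehicle mice at the median of the members, from 7.27% to 64.7%. The same value was 96.8% at the median of the 12806 eligible coding genes. The median log2 ratio of mean CPM was -1.09 against LPS-vehicle and -1.12 against sham-vehicle mice. For 169 members the LPS-CPD-4645 mean was under 50.0% of the vehicle mean.

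**Figure D1:**
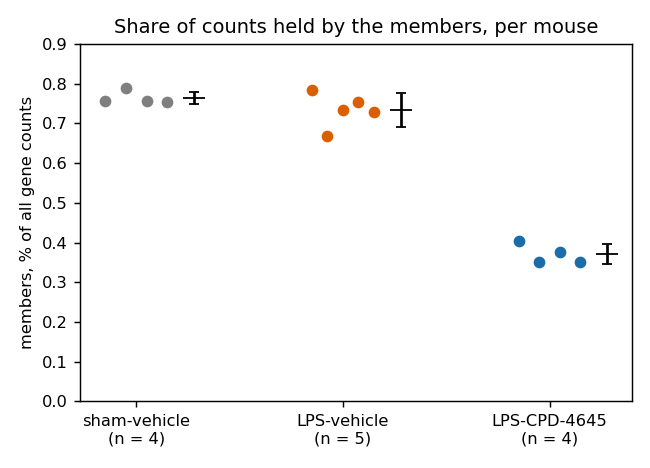
Share of all gene counts held by the 259 members, in percent, for each mouse (points), with the mean and SD of each group beside the points (black). The 4 LPS-CPD-4645 mice lie between 0.350% and 0.404% and the 9 vehicle mice between 0.668% and 0.788%, a gap that the choice of members required.

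The mice that set the limits were not spread evenly. LPS-vehicle mouse 2 was the lowest vehicle mouse for 91 of the 259 members, and it was the most deeply sequenced library. LPS-CPD-4645 mouse 1 was the highest of its group for 126 members and the second shallowest library, with 12548404 counts. Total counts ran from 7813559 to 55133373, and 12 members had fewer than 10 counts in LPS-CPD-4645 mouse 1. Without that mouse 425 genes met the rule, and without the 2 shallowest libraries (mouse 3 of the LPS-vehicle group and the same LPS-CPD-4645 mouse) 506 did, all 259 members among them.

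The members near the ratio of 1.3 differed little from genes that missed it. *Fancl*, a ubiquitin ligase of the Fanconi anemia pathway, *Sumf2*, a homologue of the sulfatase-modifying enzyme, and *Fam3a*, a cytokine-like protein, lay just inside. Their lowest vehicle values were 9.55, 19.5 and 24.5 CPM and their highest LPS-CPD-4645 values were 7.33, 15 and 18.8 CPM. *Anln*, an actin-binding protein of the cytokinetic ring, *Mrpl49*, a mitochondrial ribosomal protein, and *Tango6* lay just outside, at 27.5 against 21.1 CPM, 50.8 against 39.1 CPM and 1.81 against 1.4 CPM.

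The largest ratios of lowest vehicle to highest LPS-CPD-4645 value were those of *Tubd1*, *Nabp1* and *Senp8*, at 3.85, 3.66 and 2.64, with *Nadsyn1* next at 2.62. *Tubd1* encodes delta-tubulin, which is needed for the microtubule triplets of the centriole. It read 5.45, 5.28, 4.46 and 5.24 CPM in sham-vehicle mice, 8.86, 4.30, 6.53, 6.83 and 8.54 CPM in LPS-vehicle mice, and 1.12, 0.852, 0.881 and 0.847 CPM in LPS-CPD-4645 mice. The last group held 14 to 25 counts of it per mouse and lay at 15% of the vehicle mean. *Nabp1*, a single-stranded DNA-binding protein of the DNA damage response, read 10.3, 9.75, 10.7 and 9.77 CPM in sham-vehicle mice, 11.1, 8.16, 11.1, 12.4 and 9.34 CPM in LPS-vehicle mice, and 2.23, 1.84, 1.57 and 2.21 CPM in LPS-CPD-4645 mice. Both vehicle groups of *Nabp1* overlapped each other, and the lowest vehicle mouse was 3.66 times the highest LPS-CPD-4645 mouse. *Senp8*, the protease that matures the ubiquitin-like protein NEDD8, read 9.98, 12.4, 8.97 and 9.86 CPM, then 11.3, 6.02, 6.40, 9.51 and 9.62 CPM, then 2.07, 2.28, 1.49 and 1.95 CPM in the 3 groups in the same order. No gene of the annotation overlapped any of these 3 genes.

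The DNA upstream of the 3 leading genes is shown because they had the largest gaps and because *Tubd1* and *Senp8* each share it with a neighbour on the other strand. The stretches are from RefSeq promoter windows on GRCm38.p6, limited to the bases that lie in no annotated exon and written in the direction of the gene. Capitals mark matches, on either strand, to the motifs spelled out after the sequences.
Tubd1 chr11:86544806-86544990, plus strand: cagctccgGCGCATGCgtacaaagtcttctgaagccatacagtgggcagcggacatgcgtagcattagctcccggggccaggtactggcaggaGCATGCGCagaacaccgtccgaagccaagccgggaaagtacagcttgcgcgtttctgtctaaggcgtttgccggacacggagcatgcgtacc
Nabp1 chr1:51478426-51478649, minus strand: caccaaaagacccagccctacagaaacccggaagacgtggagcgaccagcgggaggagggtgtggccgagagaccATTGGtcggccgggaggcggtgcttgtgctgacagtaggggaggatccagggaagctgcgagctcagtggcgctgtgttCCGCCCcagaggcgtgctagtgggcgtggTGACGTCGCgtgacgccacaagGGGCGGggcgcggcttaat
Senp8 chr9:59750711-59750895, minus strand: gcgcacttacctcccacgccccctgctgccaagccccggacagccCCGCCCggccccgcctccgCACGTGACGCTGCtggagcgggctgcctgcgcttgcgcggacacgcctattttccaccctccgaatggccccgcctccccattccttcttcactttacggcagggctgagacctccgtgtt
GCATGCGC, the core of the site of nuclear respiratory factor NRF1, began 92 and 177 bases before the RefSeq start of *Tubd1*, once on each strand. GGGCGG, the GC box, was present in the *Nabp1* and *Senp8* stretches, CCAAT in that of *Nabp1*, CACGTG in that of *Senp8* and TGACNNNGC in both, where in *Senp8* the last motif overlaps CACGTG. Promoter windows of 300 bases were listed for 213 members, and the 170 with a single window were searched for 9 motifs. GCATGCGC was in 5.29% of these and in 5.72% of the 7951 eligible coding genes with a single window, GGGCGG in 60.6% and 67.8%, CCAAT in 41.2% and 38.6%, CACGTG in 9.41% and 10.3%, and TGACNNNGC in 11.8% and 14.6%. The ETS-type motif CCGGAAGT was in 5.88% and 8.50%, AAGATGGC in 5.88% and 5.06%, TATAAA in 7.65% and 6.46%, and TGACGTCA in 2.35% and 3.43%. The matches are a description of letters only.

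Coding genes that start beside a member on the other strand lay, at the median, near the level of eligible coding genes in general. A coding gene on the other strand started within 1000 bases of the start of 60 members (23.2%), against 15.2% of the eligible coding genes. Of these neighbours 51 reached a CPM of 1 in every vehicle mouse, and 0 of the 51 were members, where 2.02% of the eligible coding genes were. The LPS-CPD-4645 mean was 99.3% of the vehicle mean at the median of the 51 neighbours and 98.1% at the median of such neighbours of all eligible coding genes. The members beside them had a median of 44.6%, which their choice fixed, so the gap between both sets is no result. *Rps6kb1*, a kinase of the mTOR pathway that starts 186 bases from *Tubd1*, read 43.0 ± 4.70 CPM in sham-vehicle (SD, n = 4), 51.0 ± 9.70 CPM in LPS-vehicle (n = 5) and 45.5 ± 5.71 CPM in LPS-CPD-4645 mice (n = 4), and all groups overlapped. *Fto*, an RNA demethylase beside the ciliary gene *Rpgrip1l*, read 188 ± 17.0, 172 ± 22.2 and 198 ± 16.7 CPM in the same groups. The LPS-CPD-4645 mice lay below all vehicle mice for 5 neighbours (9.80%, against 10.4% of the eligible coding genes): *Myo9a* beside *Senp8*, *Mmgt2* beside *Lrrc75a*, *Numa1* beside *Lrrc51*, *Erp44* beside *Invs* and *Oard1* beside *Nfya*. *Myo9a*, an unconventional myosin, read 74.4 to 84.6 CPM in sham-vehicle, 70.0 to 96.4 CPM in LPS-vehicle and 47.3 to 56.3 CPM in LPS-CPD-4645 mice. *Timm29*, a mitochondrial import protein beside *Yipf2*, stood farthest in the other direction, at 69.7 to 95.4 CPM in the vehicle mice and 143 to 163 CPM in the LPS-CPD-4645 mice, while *Yipf2* itself was at 49.4% of its vehicle mean. The strand setting of the counting is not given in the sources used here, so a gene's count may hold reads of a gene opposite to it.

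**Figure D2:**
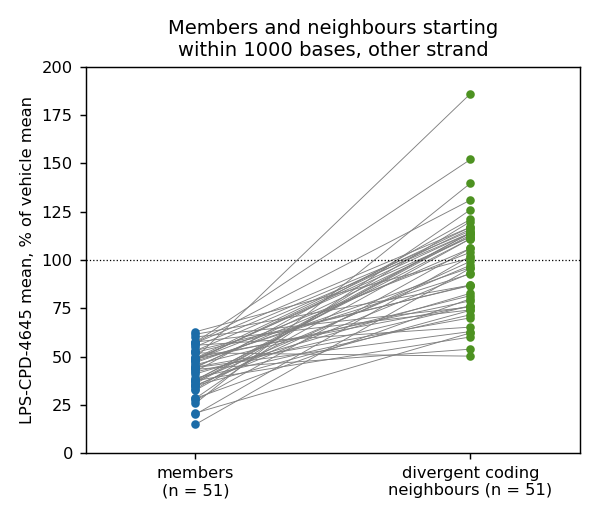
LPS-CPD-4645 mean as percent of the mean over the 9 vehicle mice, for 51 members (left) and the coding gene that starts within 1000 bases of each on the other strand (right), with lines joining the pairs. The neighbours, kept where they reached a CPM of 1 in every vehicle mouse, centre on 99.3%, and the members, chosen for a low LPS-CPD-4645 level, on 44.6%.

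Further large gaps were in genes of unlike function. *Nadsyn1*, the last enzyme of NAD synthesis from nicotinic acid, read 6.27 to 7.17 CPM in sham-vehicle, 6.52 to 9.93 CPM in LPS-vehicle and 1.72 to 2.39 CPM in LPS-CPD-4645 mice. *Tfb1m*, which methylates the RNA of the small mitochondrial ribosomal subunit, lay at 27.1% of its vehicle mean, *Nwd1*, a NACHT and WD-repeat protein, at 27.7%, and *Tmem35b* at 26.1%. *Zmym6* overlaps *Tmem35b* on the same strand and *Tiam2* and *Cldn20* overlap *Tfb1m* on the other. *Fam228a* and *Crip3*, a LIM-domain protein, were at 25.9% and 18.1%. *Fam228a* lies opposite *Itsn2* and held 7 to 17 counts in LPS-CPD-4645 mice. *Rhcg*, an ammonia channel, held 1 to 15 counts in those mice and lay at 15.9%.

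*Slc38a5* encodes a glutamine transporter of the cell membrane, present in brain endothelium. It read 10.8, 8.53, 9.74 and 5.74 CPM in sham-vehicle mice, 3.82, 2.74, 1.15, 2.57 and 2.66 CPM in LPS-vehicle mice, and 0.558, 0.579, 0.0 and 0.405 CPM in LPS-CPD-4645 mice, which held 7, 17, 0 and 11 counts. The 3 groups did not overlap, and the LPS-CPD-4645 mean was 7.27% of the mean over both vehicle groups, the lowest of the 259. The vehicle groups themselves differed for this gene, and against LPS-vehicle mice alone its fitted log2 difference was -2.74, while that of *Tubd1* was -2.86.

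**Figure D3:**
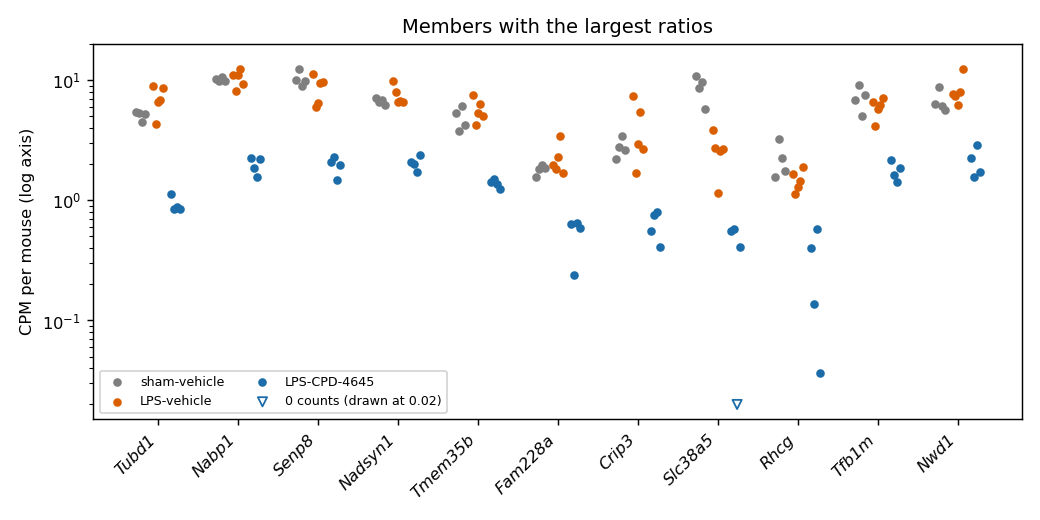
CPM per mouse on a log axis for 11 of the members with the largest ratio of lowest vehicle to highest LPS-CPD-4645 value, with 1 point per mouse. In each of the 11 genes the 4 LPS-CPD-4645 mice lie below the 9 vehicle mice, by the choice of members, and the open triangle marks the mouse with 0 counts of *Slc38a5*.

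By role, written by hand from general knowledge once the members were known, 152 members fell into 11 groups and 107 had no assigned role. The 107 lay at 18.1% to 63.0% of their vehicle mean with a median of 45.7%, the same as that of all members. The group medians ran from 35.7% for transporters, matrix and immune signalling to 52.8% for glycosylation, folding and lipid synthesis.

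**Figure D4:**
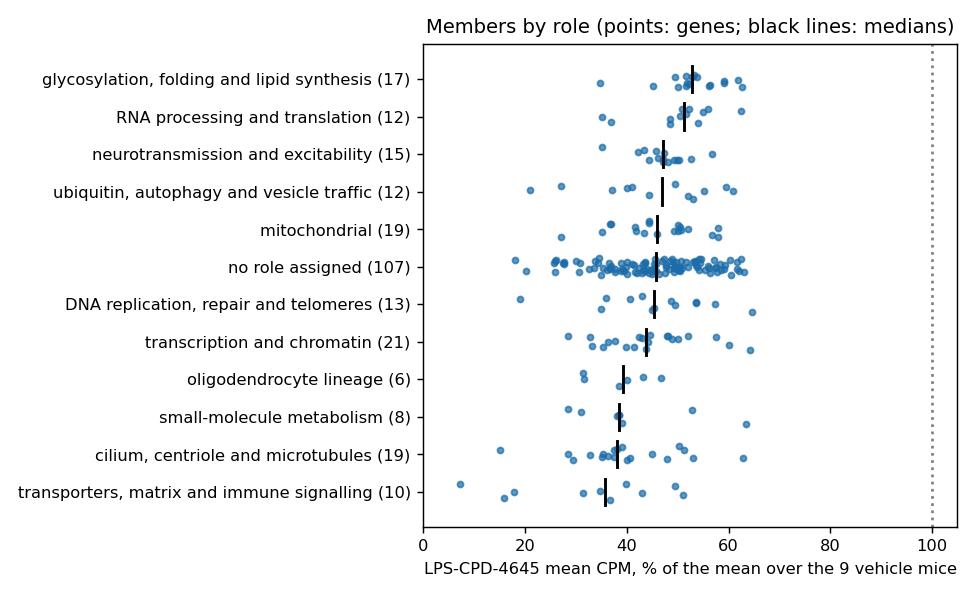
LPS-CPD-4645 mean as percent of the vehicle mean for each member (points), by role with the number of members in brackets, and the median of each role (black lines). The dotted line at 100% marks no difference. The roles overlap widely, with medians between 35.7% and 52.8%.

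Mitochondrial genes gave 19 members. Among them were assembly factors of the respiratory chain and factors of mitochondrial RNA and translation. *Bcs1l*, which inserts the Rieske protein into complex III, read 17.6, 24.0, 20.9 and 17.9 CPM in sham-vehicle, 16.7, 15.6, 15, 16.5 and 20 CPM in LPS-vehicle, and 8.05, 5.49, 5.63 and 6.52 CPM in LPS-CPD-4645 mice. *Timmdc1*, a complex I assembly factor, lay at 50.4% of its vehicle mean, and *Coa6*, a copper chaperone of cytochrome oxidase that lies opposite *Tarbp1*, at 41.6%. With *Tmem126b* these were 4 of 46 eligible assembly factors (8.70%), of which 10 lay below all vehicle mice. *Mettl8*, a methyltransferase of mitochondrial transfer RNA, was at 44.4% and *Fastkd2*, an RNA-binding protein of the mitochondrial ribosome, at 43.4%. *Dcaf17* overlaps *Mettl8* on the other strand and stood at 63.0% of its own vehicle mean. Of 135 eligible genes of mitochondrial gene expression 6 were members (4.44%). Over whole lists, members included, the median fitted log2 difference from LPS-vehicle mice was -0.02 for mitochondrial gene expression, -0.08 for the assembly factors, -0.20 for primary cilium and centriole genes, -0.46 for motile cilium genes and -0.13 for DNA repair and telomere genes, against -0.02 over all genes tested. Against sham-vehicle mice the medians were -0.04, -0.17, -0.11, -0.31 and -0.04 in the same order, against -0.01 over all genes tested. These medians come from the contrasts that the rule used and are a description.

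Centriole and cilium genes gave another 19 members. *Spice1*, needed for centriole duplication, read 13.3, 15.5, 14.7 and 12.4 CPM in sham-vehicle, 12.1, 12.1, 15, 18.3 and 17.7 CPM in LPS-vehicle, and 6.61, 4.50, 4.75 and 4.64 CPM in LPS-CPD-4645 mice. *Katnal2*, a katanin-like microtubule-severing protein, lay at 28.4% of its vehicle mean and *Tmem107* and *Rpgrip1l*, both of the ciliary transition zone, at 29.4% and 32.7%. In all 9 of the 118 eligible primary cilium and centriole genes were members (7.63%), and 26 lay below all vehicle mice. Of the 60 eligible motile cilium genes 6 were members (10.0%). *Ccdc39*, which sets the repeat of the axoneme, read 14.9 ± 0.300 CPM in sham-vehicle (SD, n = 4), 18.9 ± 4.89 CPM in LPS-vehicle (n = 5) and 8.22 ± 0.748 CPM in LPS-CPD-4645 mice (n = 4), and *Ttc14* overlaps it on the other strand. *Maats1*, a radial spoke protein, and *Ttc25*, of the outer dynein arm docking complex, stood at 36.4% and 40.6%, but near the lower limit of the rule, at 1.62 and 1.77 CPM over the vehicle mice. *Ccdc153*, the ependymal marker among the members, read 1.38 to 3.31 CPM in vehicle and 0.398 to 1.06 CPM in LPS-CPD-4645 mice. The other 8 ependymal markers summed to 24.1 to 39.4 CPM in vehicle and 18.3 to 26.8 CPM in LPS-CPD-4645 mice, and their part in the ciliary values was not tested.

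DNA replication, repair and telomere genes gave 13 members. *Mus81*, the nuclease subunit that cuts stalled forks and crossovers, read 30.5, 32.5, 26.8 and 26.8 CPM in sham-vehicle, 34.9, 34.5, 35.8, 34.7 and 31.6 CPM in LPS-vehicle, and 16.4, 11.3, 17.2 and 13.3 CPM in LPS-CPD-4645 mice. *Efemp2* overlaps it on the other strand. *Fancc* of the Fanconi core complex lay at 40.7% of its vehicle mean and *Rad51c*, a recombination mediator, at 36.0%. With *Nabp1*, *Fancl*, *Pot1a* and *Trp53bp1* these were 7 of 85 eligible repair and telomere genes (8.24%), while 3 coding genes of the same list were in the mirror set.

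Transcription and chromatin genes gave 21 members and RNA processing genes 12. *Med20*, a subunit of the Mediator head, read 37.7, 33.5, 36.4 and 35.6 CPM in sham-vehicle, 46.9, 42.4, 49.8, 50.7 and 51.3 CPM in LPS-vehicle, and 17.6, 11.1, 15.8 and 12.2 CPM in LPS-CPD-4645 mice, and it was the only 1 of 47 eligible Mediator and Integrator genes in the set. Of 365 eligible zinc finger genes 10 were members (2.74%), and those with the largest ratios, *Zfp524*, *Zfp866* and *Zbtb40*, stood at 28.5%, 37.7% and 32.7% of their vehicle means. Many zinc finger genes have related copies, and whether reads were shared between copies was not examined here. *Trmt12*, an enzyme of wybutosine synthesis in transfer RNA, *Adat1*, a transfer RNA deaminase, and *Lage3*, a subunit of the KEOPS transfer RNA complex, stood at 36.9%, 35.2% and 52.3%. They belonged to 5 members among 78 eligible RNA modification genes (6.41%).

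Protein processing, lipid synthesis and turnover were spread over further members. *Josd2*, a deubiquitylase, read 66.2, 64.2, 62.2 and 53.2 CPM in sham-vehicle, 56.1, 38.4, 50.8, 55.5 and 62.7 CPM in LPS-vehicle, and 20.4, 11.2, 15.4 and 14.4 CPM in LPS-CPD-4645 mice. *Josd2* and *Senp8* were 2 of 76 eligible deubiquitylases and related proteases (2.63%). *Pigq* of the first step of GPI anchor synthesis stood at 45.1% of its vehicle mean, with 40.9 to 55.2 CPM in LPS-CPD-4645 mice and at least 93.5 CPM in vehicle mice. *Pigu*, of the transamidase that attaches the anchor, and *Alg14*, of the second step of N-glycan synthesis, lay at 52.8% and 51.9%, and the list gave 3 of 66 eligible genes (4.55%). *Atg4c*, a protease of the LC3 family, was at 44.3%. Among all members *Hacd3*, a dehydratase of very-long-chain fatty acid synthesis, had the highest level per length, at 102 CPM per kilobase of exon over the vehicle mice, and it read 255 to 314 CPM in vehicle and 159 to 195 CPM in LPS-CPD-4645 mice. *Agpat1*, which makes phosphatidic acid, read 103 to 154 and 60.5 to 78.7 CPM, and *Egfl8* lies opposite it. *Zfand5*, a proteasome-binding zinc finger protein, and *Map3k12*, a kinase of axon injury signalling that overlaps *Pcbp2* on the other strand, stood at 56.3% and 59.4%. *Prelp*, a matrix proteoglycan, and *Slc7a4*, a member of the cationic amino acid transporter family that lies opposite *P2rx6*, stood at 31.4% and 39.8%. *Slc4a1ap* carries a solute carrier symbol without being a carrier and was at 53.1%.

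Genes of neurotransmission and excitability gave 15 members, most of them receptors or channels. The group III metabotropic glutamate receptors, presynaptic receptors that lower transmitter release, stood together, a pattern chosen after the values were seen. *Grm4* read 43.9, 54.9, 55.8 and 52.0 CPM in sham-vehicle, 50.1, 42.0, 44.9, 36.9 and 41.5 CPM in LPS-vehicle, and 19.0, 17.6, 22.4 and 24.3 CPM in LPS-CPD-4645 mice. *Grm7* read 49.1 to 66.7 CPM in vehicle and 21 to 32.3 CPM in LPS-CPD-4645 mice, and *Grm8* 13.9 to 19.5 and 7.51 to 8.77 CPM. The remaining receptor of this group, *Grm6*, was at most 0.0896 CPM in any mouse. Of the other metabotropic receptors, *Grm2* lay below all vehicle mice at a ratio of 1.01, while *Grm3* and *Grm5* overlapped the vehicle mice. *Gabra2*, a subunit of the GABA-A receptor, read 191, 148, 171 and 232 CPM in sham-vehicle, 165, 135, 189, 154 and 153 CPM in LPS-vehicle, and 86.7, 75.4, 81.0 and 101 CPM in LPS-CPD-4645 mice. None of the 12 neuronal markers was a member, and their sum was 10948 to 11473 CPM in sham-vehicle, 9790 to 10296 CPM in LPS-vehicle and 9958 to 11709 CPM in LPS-CPD-4645 mice. The LPS-CPD-4645 mice overlapped both vehicle groups, which did not overlap each other.

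Genes of the oligodendrocyte lineage gave 6 members. *Sox10*, the transcription factor of the lineage, read 60.9, 63.9, 61.6 and 55.3 CPM in sham-vehicle, 39.4, 38.0, 36.2, 43.6 and 48.4 CPM in LPS-vehicle, and 27.8, 21.9, 24.3 and 19.2 CPM in LPS-CPD-4645 mice. *Aspa*, which cleaves N-acetylaspartate, read 34.7, 34.5, 30.9 and 28.4 CPM, then 18.9, 22.6, 15.5, 22 and 15.4 CPM, then 9.32, 7.33, 7.39 and 7.26 CPM. In both genes the 3 groups formed separate steps without overlap. *Gjb1* and *Gjc3*, gap junction connexins of myelinating cells, and *Plxnb3*, a semaphorin receptor, were at 31.4%, 43.2% and 38.5% of their vehicle means. *Cspg4*, the NG2 proteoglycan of precursor cells and pericytes, read 17.7 to 31.5 CPM in vehicle and 7.37 to 11.2 CPM in LPS-CPD-4645 mice, and the vehicle groups overlapped each other. The 8 precursor markers that were not members summed to 289 to 444 CPM in vehicle and 256 to 285 CPM in LPS-CPD-4645 mice, while the 11 other oligodendrocyte markers summed to 5452 to 6967 CPM in sham-vehicle, 4060 to 5221 CPM in LPS-vehicle and 4619 to 5424 CPM in LPS-CPD-4645 mice. The sums of these 11 markers were thus lower in every LPS-vehicle than in every sham-vehicle mouse, and those of LPS-CPD-4645 mice overlapped the LPS-vehicle mice. The part of both marker lists in the members' values was not tested.

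Whether LPS alone moved the members was the question that the rule left partly free. With edgeR's quasi-likelihood test on all 17285 genes that passed the filter on low counts, which all 259 members did, 0 members were higher and 4 were lower in LPS-vehicle than in sham-vehicle mice when a call needed a 2-fold difference and a p, adjusted by the Benjamini-Hochberg method, of 0.05 or less. Over all genes tested 4.68% were higher and 0.995% lower by these limits, and over the eligible coding genes 3.1% and 0.687%. The rule asked all 9 vehicle mice to lie above the LPS-CPD-4645 mice, which favours genes with little spread between the vehicle groups, so these counts are not independent of the choice. DESeq2 and limma-voom gave 0 and 4 as well. At an unadjusted p under 0.05, 6 members were higher (2.32%, against 16.9% of all genes tested) and 61 lower (23.6%, against 15.4%). At the adjusted p alone, 4 members were higher (1.54%, against 11.1% of all genes tested and 11.4% of the eligible coding genes) and 35 lower (13.5%, against 8.86% and 11.1%). The 4 higher genes were *Med20* at a log2 fold change of 0.32, *C2cd2*, a lipid-binding C2 domain protein, at 0.40, *Acp6*, a mitochondrial lysophosphatidic acid phosphatase, at 0.39, and *Atg16l2*, a relative of the autophagy protein ATG16L1, at 0.36. This count was 0 without sham-vehicle mouse 1 or 3 or LPS-vehicle mouse 1 or 4, and 1 without sham-vehicle mouse 4 or LPS-vehicle mouse 3. The median log2 fold change of the members was -0.14, and 30.5% lay above 0, against 47.2% of the eligible coding genes. The rule used these vehicle mice, and the LPS-CPD-4645 mice it set them against had also received LPS, so the direction of this shift is not independent of the choice and is given as a description.

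The 4 called genes were *Slc38a5*, *Gjb1*, *Plxnb3* and *Cckbr*. *Slc38a5* fell by 1.81 on the log2 scale (SE 0.37, edgeR adjusted p = 0.0018). *Gjb1* read 26.6, 33.5, 33.2 and 25.2 CPM in sham-vehicle and 8.60, 13.4, 9.34, 11.1 and 13.2 CPM in LPS-vehicle mice, without overlap, and fell by 1.5 (SE 0.15, adjusted p = 8.4e-07). It read 5.98, 6.20, 6.43 and 5.67 CPM in the LPS-CPD-4645 mice. *Plxnb3* read 33.9, 37.8, 32.2 and 30.3 CPM, then 14.6, 16.9, 15.1, 13.7 and 15.7 CPM, and fell by 1.24 (SE 0.12, adjusted p = 7.1e-07). *Cckbr*, a cholecystokinin receptor of neurons, read 50.4, 57.0, 54.0 and 49.9 CPM, then 27.1, 23.1, 32.9, 26.8 and 29.5 CPM, and fell by 1.03 (SE 0.10, adjusted p = 1.2e-06). In each of the 4 genes the sham-vehicle and LPS-vehicle mice did not overlap. Without LPS-vehicle mouse 2 *Cckbr* was at -0.98 and 3 genes were called.

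At the adjusted p alone, where 8.86% of all genes tested and 11.1% of the eligible coding genes were lower after LPS, so were 5 of the 6 oligodendrocyte lineage members and 6 of the 15 neurotransmission members. These role groups were made once the members were known, and no difference between them was tested. The summed oligodendrocyte and neuronal markers given above were also lower in all LPS-vehicle than in all sham-vehicle mice, and their part in these counts was not tested. *Aspa* fell by 0.86 (SE 0.13, edgeR adjusted p = 8.3e-05) and *Sox10* by 0.65 (SE 0.10, adjusted p = 8.7e-05), while *Cspg4* was at 0.23 (SE 0.15, adjusted p = 0.32). *Kcna4*, a voltage-gated potassium channel, fell by 0.68, and *Kcng1*, *Kcnj9*, *Rims1* and *Grm4* fell by 0.49, 0.32, 0.38 and 0.37. *Grm7* was at -0.02 and *Grm8* at -0.17, with adjusted p of 0.92 and 0.40. *Gatm*, the first enzyme of creatine synthesis, read 101 to 114 CPM in sham-vehicle, 57.9 to 92.7 CPM in LPS-vehicle and 29.9 to 37.9 CPM in LPS-CPD-4645 mice and fell by 0.64 after LPS (SE 0.10, adjusted p = 0.00012).

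**Figure D5:**
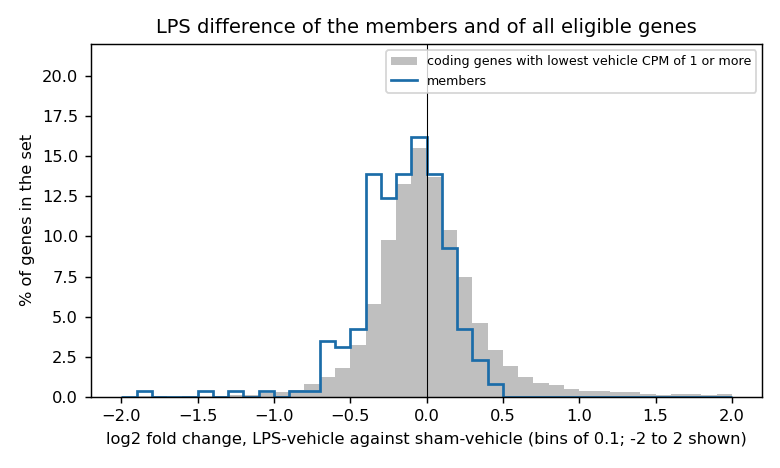
Distribution of the log2 fold change of LPS-vehicle against sham-vehicle mice (edgeR), in bins of 0.1, for the 259 members (blue line) and the 12806 eligible coding genes (grey), as percent of each set, with the range from -2 to 2 shown. Of the members 30.5% lie above 0, against 47.2% of the eligible genes, a description only, since the rule used the same vehicle mice.

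Gene structure was similar at the median. The members' exonic length was 4503 bases at the median and that of the eligible coding genes 4640 bases, and both sets had a median of 5 annotated transcripts. The GC content of the longest transcript was 48.5% against 50.0% at the median, and promoter windows held 18 against 22 CpG. A gene on the other strand overlapped 46.3% of the members and 44.9% of the eligible genes. Chromosome 7 held 29 members (11.2%, against 7.51% of the eligible genes) and chromosome 18 held 3 (1.16%, against 2.64%). In the mirror set these chromosomes held 16.1% and 4.46%, so a raised share on chromosome 7 was not particular to the members. The vehicle level was lower than usual, at 19.8 CPM at the median against 33.8 CPM, and per length at 4.22 against 6.92 CPM per kilobase of exon. Within the LPS-CPD-4645 group the coefficient of variation was 15.8% at the median of the members and 11.8% at that of the eligible genes. In LPS-vehicle mice it was 13.2% and 12.7%, and in sham-vehicle mice 10.6% and 11%.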

How the data were processed

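RNA of isolated neurovasculature from 13 mice was sequenced from stranded polyA libraries. Per the submitters' processing notes, bcl2fastq 2.15.0.4 and STAR 2.5.2a were used, and the authors deposited whole-number counts of genes in the basic set of GENCODE M9 on GRCm38, without normalization. Each library is 1 mouse, grouped by its label.

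CPM here are counts divided by the column total. Symbols, gene types, positions and overlaps came from GENCODE M21 on the same build, and 47224 of 47643 identifiers matched. LPS-vehicle and sham-vehicle mice were compared with edgeR 4.0.16 (R 4.3.3): filterByExpr with a minimum count of 10 and total of 15, TMM factors from 0.908 to 1.08, and a quasi-likelihood fit of all 3 groups without a block, tested on simulated data. Alternatives were limma-voom (limma 3.58.1), which the study used, DESeq2 1.42.0, its size factors, other filters, only the vehicle groups, a replicate block and each mouse left out. No p was read from comparisons with LPS-CPD-4645 mice, since the rule used them.

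Genes named are the 12 largest ratios, the 5 with the most counts, the 5 highest and lowest after LPS, up to 3 per functional list with at least 2 members, members on cell type lists, and 3 on each side of the limit. Some of these genes are not reported here. Other genes, the roles and the neighbour comparison were picked after their values were seen. The members and all lists were chosen with earlier results of these data known. The 19 functional and 15 cell type lists are symbol lists from general knowledge. NRF2 targets (33 eligible genes) gave 0 members, and endoplasmic reticulum folding (38), solute carriers (256), autophagy (42) and vessel matrix (35) gave 1, 4, 2 and 2. Endothelial (15 eligible), pericyte (11), astrocyte (11), microglial (9), neuronal (12), choroid plexus (6) and fibroblast (8) markers gave 0, as did neutrophil (1), monocyte (4), lymphocyte (2), platelet (3) and erythrocyte (4) markers, few of which could have been chosen.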

Additional observations from a re-analysis of the deposited data

Results flagged for a closer look

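Among 55 named members and the summed CPM of all members, in 3 groups each, 168 sets of values were searched for a mouse far from the others by Dixon's criterion, and 9 had one (5.36%, where chance gives about 1 in 20). The members summed to 7881 CPM in sham-vehicle mouse 2 and to 7549 to 7571 CPM in the other sham-vehicle mice. *Hacd3* was at 314 CPM in sham-vehicle mouse 4 and at 285 to 288 CPM in the others.

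In LPS-vehicle mouse 1, *Adat1* was at 10.7 CPM, against 5.88 to 6.77 CPM in the other 4. *Nwd1* was at 12.4 CPM in LPS-vehicle mouse 5 and at 6.27 to 7.96 CPM in the others.

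In LPS-CPD-4645 mouse 1, *Tubd1* was at 1.12 CPM, *Aspa* at 9.32 CPM and *Spice1* at 6.61 CPM, against at most 0.881, 7.39 and 4.75 CPM in the other 3 mice of that group. In LPS-CPD-4645 mouse 2, *Fam228a* was at 0.239 CPM and *Pigu* at 18.2 CPM, against at least 0.589 and 24.6 CPM in the others.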

How the results depend on the processing

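The number of members followed the limits set. It was 245 with TMM-scaled libraries, of which 219 were among the 259, 228 with DESeq2's size factors (209 among the 259), 291 without mitochondrial counts, and 265 and 216 at a lowest vehicle CPM of 0.5 and 5. A ratio of 1.2 gave 438, 1.5 gave 94 and 2 gave 8. Leaving out 1 mouse at a time gave 264 to 425, the last without LPS-CPD-4645 mouse 1. Without the 2 shallowest libraries, chosen after seeing the data, it was 506, of which all 259 were part. The median log2 ratio against LPS-vehicle mice was -1.15 to -1.06 and against sham-vehicle mice -1.20 to -1.10 with 1 mouse left out.

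For LPS-vehicle against sham-vehicle mice, 0 members were called higher under each alternative run, and 4 lower under each except the fits without LPS-vehicle mouse 1 (5) and mouse 2 (3). The counts at the adjusted p alone were compared under the same alternatives after seeing the data: 35 lower became 24 to 38 with 1 mouse left out and 50 with limma-voom, and 4 higher became 0 to 4, 2 without a filter and 1 without the 2 shallowest libraries. No called gene changed sign, and the log2 fold change of *Slc38a5* ranged from -1.95 to -1.67. The cause of these changes was not tested.

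With the replicate number as a block, 0 members were called higher and 4 lower, and 3 and 39 passed at the adjusted p alone. Deviations of same-numbered mice of different groups correlated at -0.0346 to 0.114 over 12 pairs, 1 of them over 0.1, so the numbers were not taken to pair the mice. At the 2-fold limit the 4 genes called lower were the same with the block, while the counts at the adjusted p alone changed. Depth limits the members with few counts: 12 had under 10 counts in LPS-CPD-4645 mouse 1.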

Other observations

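The genes of the enzyme CPD-4645 blocks and of related hydrolases were not members. *Mgll*, which encodes MAGL, read 94.7 to 140 CPM in vehicle mice and 114 ± 9.53 CPM in LPS-CPD-4645 mice (SD, n = 4). *Abhd6*, another enzyme that hydrolyses 2-arachidonoylglycerol, read 34.3 to 53.1 CPM in vehicle and 36.1 to 53.3 CPM in LPS-CPD-4645 mice, and *Faah*, which hydrolyses anandamide, 81.5 to 107 and 81.6 to 95.1 CPM. The groups overlapped for all 3 genes. A further 40 genes that are not protein-coding met the same limits as the members.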
